A study of Mus musculus with 6 samples.

Results

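The genes described here are 8 genes that mark or direct the memory and effector differentiation of CD8 T cells: the surface molecules Cd44, Il2rb, Cxcr3, Ly6c2 and Klrg1, and the transcription regulators Tbx21, Eomes and Id2. They were chosen by name, as the rows of the count files whose Ensembl identifier maps to these symbols, and they are 8 of 44678 genes. All 8 passed the filter on low counts.

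CD8 T cells leave the thymus as naive cells, which circulate through lymphoid organs and carry little CD44. After they meet antigen, or during slow turnover driven by cytokines, they can take on effector or memory programs. T-bet (encoded by Tbx21) and Eomesodermin (Eomes) direct cytotoxic genes and the IL-15 responsiveness that keeps memory cells alive, and Id2 holds E proteins in check as effector cells form.

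The study compared mice that lack the microRNAs miR-144 and miR-451 with wild type mice. KO libraries (n = 3) came from miR-144/451 knockout mice, whose deletion takes out both precursors from the genome, and WT libraries (n = 3) from wild type mice. Both strains are on the C57BL/6J background, neither group was treated, and all RNA came from CD8a+ leukocytes of the spleen. The study's methods describe magnetic beads against Ly-2, another name for CD8a, for CD8 T cells, and a CD11c sort for dendritic cells. They do not tie these 6 libraries to either sort. The paper introduces its transcriptome sequencing with a question on dendritic cell function. The deletion is constitutive, so every cell of a KO mouse carries it. The study's methods give a single age range, of young adult mice, for all its animals. The sample records do not say whether the 3 libraries of a group are from separate animals, so p-values measure only the spread between these samples, which may be technical.

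MicroRNAs pair with messenger RNAs mainly through their seed, bases 2 to 8. The 3 mature strands that the KO mice lack are printed below from RefSeq (GRCm38.p6) with the seed in capitals, because the seed sets which sites could be looked for in the 8 genes. All 3 are encoded on the plus strand of chromosome 11, at chr11:78073010-78073032, chr11:78073047-78073066 and chr11:78073186-78073207 in this order. No library held a count for either precursor gene (0 of 6 for Mir144 and for Mir451a), so these counts do not check the genotype labels.
mmu-miR-144-5p: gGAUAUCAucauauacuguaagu
mmu-miR-144-3p: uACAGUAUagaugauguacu
mmu-miR-451a: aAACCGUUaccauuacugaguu

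The reverse complements of the seeds, which are TGATATC for miR-144-5p, ATACTGT for miR-144-3p and AACGGTT for miR-451a, were searched on the transcript strand of the longest coding transcript of each gene (GENCODE M21, GRCm38). No 3′-UTR of the 8 genes held any of them, and neither did the rest of these transcripts. Among 11513 tested genes with a 3′-UTR, whose median length was 1150 nt, 5.45% held the site of miR-144-5p, 13.3% that of miR-144-3p and 1.89% that of miR-451a. Shorter 6-base matches to positions 2 to 7, searched in the 3′-UTRs alone, occurred 4 times in 3 of the genes, against a share of 13.9%, 38.1% and 7.91% of all these 3′-UTRs for the same 3 strands. The 4 windows are printed 5′ to 3′ on the transcript strand with the match in capitals, to show what lies around these 3′-UTR matches. In Cd44, which is on the minus strand, the matches to miR-144-3p lie in exon 19 at chr2:102812592-102812597 and chr2:102811609-102811614. The Eomes match to miR-144-5p lies in exon 6 on the plus strand at chr9:118485505-118485510, and the Cxcr3 match to miR-144-3p in exon 2 on the minus strand at chrX:101731769-101731774. A match of letters is a description and does not show a site in use.
Cd44, first match: cccactttTACTGTtgactaaa
Cd44, second match: taatgatgTACTGTgtctttgt
Eomes: tcttcacaGATATCttctgcca
Cxcr3: aacaccatTACTGTgccttagc

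In their content of T cell, B cell and monocyte markers, the 6 libraries did not group by genotype. Libraries totalled between 8143971 and 8876570 counts, and levels are given in CPM (each count divided by its library's total and scaled to 1000000). In these units 3 counts equal 0.338 to 0.368 CPM. T cell markers were present throughout, with Cd3e between 220 and 398 CPM and Cd8a between 481 and 1030 CPM. Genes of other cells were present as well: the B cell gene Ighm ranged from 1630 to 2870 CPM, and 12 B cell markers summed to between 3210 and 6410 CPM. WT1, KO1 and KO2 held between 3700 and 5060 CPM of 16 T cell markers and between 1500 and 1830 CPM of 10 monocyte markers. WT2, WT3 and KO3 held between 6080 and 6420 CPM of the T cell markers and between 701 and 937 CPM of the monocyte markers. No marker of these lists was at 0 in a library. The libraries therefore stand as mixed CD8a+ preparations, and each gene is given both in CPM and as its ratio to Cd3e, a chain of the T cell receptor complex. In such bulk samples, fewer cells of a type and less RNA per cell cannot be told apart.

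**Figure D1:**
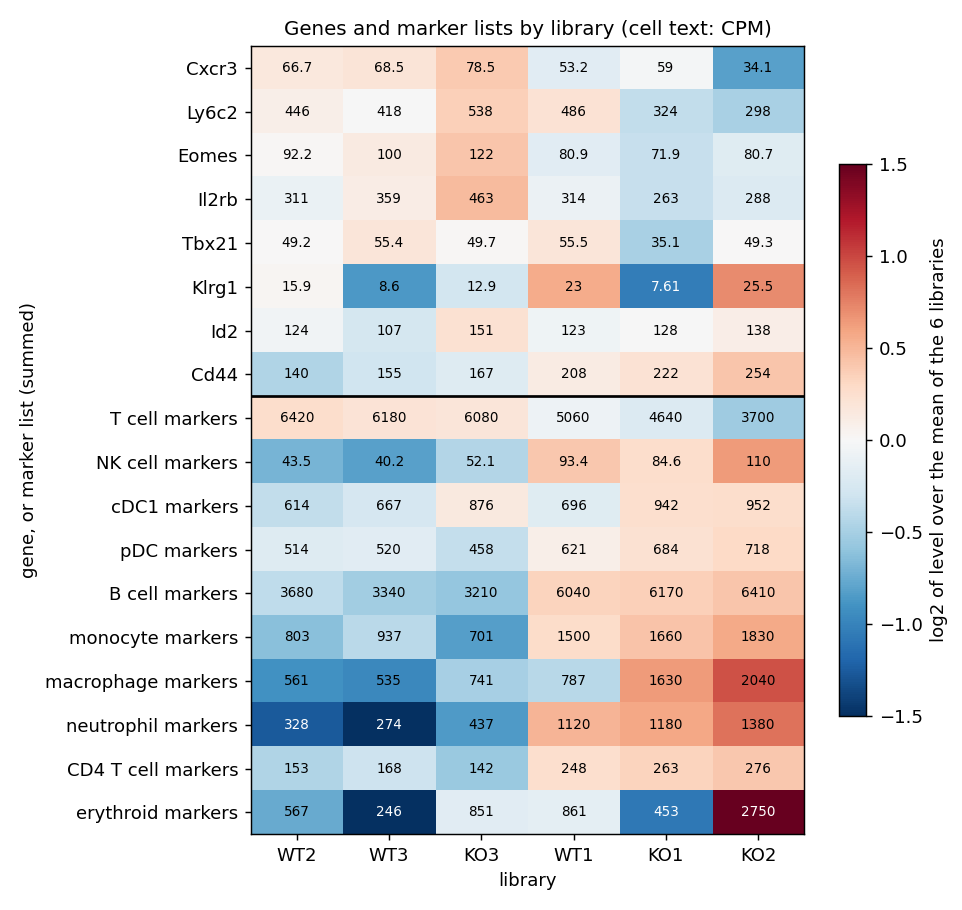
Each row is one of the 8 genes or the summed CPM of a marker list, each column a library, and the colour is the log2 of the level over the mean of the 6 libraries, with the CPM written in the cell. The T cell marker row is highest in WT2, WT3 and KO3. The B cell, monocyte, macrophage, neutrophil and CD4 T cell rows are highest in WT1, KO1 and KO2. The cDC1 row is highest in the KO libraries. Cd44 has its highest levels, between 208 and 254 CPM, in WT1, KO1 and KO2.

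None of the 8 genes passed the threshold between KO and WT. With TMM scaling, and the p-values of edgeR's quasi-likelihood test adjusted by Benjamini-Hochberg over 13024 genes, 0 of the 8 had an adjusted p under 0.05, against 0.0307% of all genes tested (4 genes). At an unadjusted p under 0.05 the count was also 0 of 8, against 6.25% of all genes (4.14% higher and 2.11% lower in KO), and DESeq2 and limma voom called none. With the Cd3e count of each library as its size, 0 of 8 passed against 0.138% of all genes (18 of 13023), and 1 of 8, Cd44, had an unadjusted p under 0.05 against 7.10% (6.99% higher and 0.115% lower in KO). That scaling raised the median log2 fold change of all genes from 0.00297 to 0.355 and put 93.9% of genes higher in KO, so changes per Cd3e are read against 0.355. The smallest p that an exact permutation test of 3 against 3 libraries can give is 0.1.

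The surface molecules come first. Cd44, the hyaluronan receptor that separates antigen-experienced from naive T cells and is also carried by myeloid cells (chr2:102811141-102901665), was at 208, 140 and 155 CPM in WT1, WT2 and WT3, and at 222, 254 and 167 CPM in KO1, KO2 and KO3. KO1 and KO2 lay above every WT library, while KO3 lay between WT3 and WT1, so the groups overlapped. The mean was 168 ± 35.6 CPM in WT and 214 ± 43.8 CPM in KO (SD, n = 3 each), a log2 fold change of 0.33 (SE 0.182, 95% interval -0.09 to 0.75), with an adjusted p of 0.816 in the quasi-likelihood test of edgeR (Benjamini-Hochberg). Per Cd3e, Cd44 was at 0.693, 0.374 and 0.390 in WT and 0.810, 1.15 and 0.428 in KO. The 3 high ratios are those of WT1, KO1 and KO2, and the groups again overlapped. Its log2 fold change per Cd3e was 0.71 (SE 0.339), the largest of the 8, with an unadjusted p of 0.0435 and an adjusted p of 0.612 in the quasi-likelihood test of edgeR (Benjamini-Hochberg).

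Cd44 was highest in WT1, KO1 and KO2, as were the summed B cell, NK cell, monocyte, macrophage, neutrophil and CD4 T cell markers. The erythroid sum (453 CPM in KO1, 851 CPM in KO3) did not follow this split. Nor did the sum for CD8a+ conventional dendritic cells (696 CPM in WT1, 876 CPM in KO3). Over fits that each omitted 1 library, the Cd44 log2 fold change per Cd3e ran from 0.35 (without KO2) to 1.06 (without WT1), and that with TMM scaling from 0.20 (without KO2) to 0.51 (without WT1). Without KO3 it was 1.01 per Cd3e with an adjusted p of 0.0493 in edgeR's quasi-likelihood test, the single call of any of the 8 genes under any alternative, and without KO2 the adjusted p was 1. The fit without KO3 called 6.42% of all genes tested (854 of 13301), 6.38% with KO higher. KO3 was the KO library with the least B cell, monocyte, macrophage and neutrophil signal. Red pulp macrophage markers summed to 1630, 2040 and 741 CPM in the KO libraries and 787, 561 and 535 CPM in the WT libraries, and 10 of 10 were higher in KO. Slc40a1, the iron exporter of these macrophages, was the only gene of the marker lists called. Its log2 fold change per Cd3e was 1.76 (SE 0.376, adjusted p = 0.0424 in edgeR's quasi-likelihood test), where 0.138% of all genes were called. With TMM scaling it was not called, at 1.32 with an adjusted p of 0.427 in the same test. Neutrophil markers summed to 1180, 1380 and 437 CPM in KO and 1120, 328 and 274 CPM in WT. CD4 and regulatory T cell markers summed to 263, 276 and 142 CPM in KO and 248, 153 and 168 CPM in WT. The part of these cells in the Cd44 values was not tested.

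Il2rb encodes the beta chain shared by the IL-2 and IL-15 receptors, high on memory CD8 T cells and NK cells (chr15:78479256-78495271). It was at 314, 311 and 359 CPM in WT1, WT2 and WT3 and at 263, 288 and 463 CPM in KO1, KO2 and KO3. KO1 and KO2 were the lowest of the 6 libraries and KO3 the highest, so the KO range enclosed the WT range. The means were 328 ± 27.1 CPM in WT and 338 ± 109 CPM in KO (SD, n = 3 each), with a log2 fold change of 0.03 (SE 0.209, 95% interval -0.45 to 0.51). Relative to Cd3e it was 1.05, 0.833 and 0.902 in WT and 0.961, 1.31 and 1.19 in KO. KO2 and KO3 then lay above every WT library and KO1 among them, a log2 fold change of 0.31 (SE 0.290), below the median of all genes on that scale.

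Cxcr3, the receptor for the interferon-induced chemokines Cxcl9 and Cxcl10 that guides effector and memory cells (chrX:101731535-101734269), was at 53.2, 66.7 and 68.5 CPM in WT and at 59.0, 34.1 and 78.5 CPM in KO. KO2 was the lowest library and KO3 the highest, and the groups overlapped. Its log2 fold change was -0.15 (SE 0.268, 95% interval -0.77 to 0.47). Per Cd3e it was 0.178, 0.179 and 0.172 in WT and 0.216, 0.155 and 0.201 in KO. Cxcr3 varied least of the 8 on that scale, with a coefficient of variation over the 6 libraries of 11.8% per Cd3e against 25.5% in CPM.

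Ly6c2 encodes a Ly6C antigen found on memory CD8 T cells and on inflammatory monocytes (chr15:75108158-75111970). It was at 486, 446 and 418 CPM in WT and at 324, 298 and 538 CPM in KO. KO1 and KO2 lay below every WT library and KO3 above them, so the groups overlapped. The means were 450 ± 34.4 CPM in WT and 387 ± 132 CPM in KO (SD, n = 3 each), with a log2 fold change of -0.24 (SE 0.217, 95% interval -0.73 to 0.26). Leaving out 1 library moved it from -0.08 (without KO2) to -0.58 (without KO3, adjusted p = 0.0814 in edgeR's quasi-likelihood test). Per Cd3e the values were 1.62, 1.19 and 1.05 in WT and 1.18, 1.35 and 1.38 in KO, a log2 fold change of 0.02 (SE 0.288). The level is uncertain, because 48.21% of the 31-base words of Ly6c2 also occur in its neighbour Ly6c1 and the counting could have divided those reads. Ly6c1 itself was at between 2.55 and 7.84 CPM. With the counts of Ly6c1 and Ly6c2 summed, the log2 fold change was -0.233 with TMM scaling and 0.0227 per Cd3e.

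Klrg1, an inhibitory receptor of short-lived effector CD8 T cells and of mature NK cells (chr6:122270596-122282882), was the least abundant and most variable of the genes. It was at 23.0, 15.9 and 8.60 CPM in WT and at 7.61, 25.5 and 12.9 CPM in KO. KO1 was lowest and KO2 highest, with the WT libraries between them. The lowest value rests on 65 counts, with a 95% Poisson interval of 5.87 to 9.70 CPM that covers counting error only. Its log2 fold change was -0.07 (SE 0.465, 95% interval -1.14 to 1.0), and libraries differed by up to 3.35-fold in CPM and 5.37-fold per Cd3e.

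Among the transcription regulators, Tbx21, which encodes T-bet (chr11:97098071-97115331), was at 55.5, 49.2 and 55.4 CPM in WT and at 35.1, 49.3 and 49.7 CPM in KO. KO1 lay below all other libraries, and KO2 and KO3 lay just above WT2. The means were 53.4 ± 3.59 CPM in WT and 44.7 ± 8.30 CPM in KO (SD, n = 3 each), with a log2 fold change of -0.27 (SE 0.146, 95% interval -0.61 to 0.06) and an adjusted p of 0.816 in the quasi-likelihood test of edgeR (Benjamini-Hochberg). Per Cd3e it was 0.185, 0.132 and 0.139 in WT and 0.128, 0.224 and 0.127 in KO, where KO2 was highest and the other KO libraries lowest. Tbx21 is on the same chromosome as the deleted microRNAs, 19.0 Mb away.

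Eomes, the other T-box factor (chr9:118478212-118486132), was at 80.9, 92.2 and 100 CPM in WT and at 71.9, 80.7 and 122 CPM in KO. As for Il2rb, KO1 and KO2 were the lowest libraries and KO3 the highest. Its means were 91.2 ± 9.82 CPM in WT and 91.7 ± 27.0 CPM in KO (SD, n = 3 each), a log2 fold change of -0.01 (SE 0.198, 95% interval -0.46 to 0.45). Relative to Cd3e, Eomes was at 0.270, 0.247 and 0.252 in WT and 0.263, 0.366 and 0.314 in KO. KO2 and KO3 exceeded the WT libraries and KO1 did not, with a log2 fold change of 0.30 (SE 0.298). The gene Gm33460 overlaps 118 exon bases of Eomes on the opposite strand, and whether the counting used strand is not given in the sources used here.

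Id2, an inhibitor of E proteins that is needed for effector CD8 T cells and also for CD8a+ dendritic cells (chr12:25093799-25097140), was at 123, 124 and 107 CPM in WT and at 128, 138 and 151 CPM in KO. Every KO library lay above every WT library, the case for 1 of the 8 genes in CPM against 11.5% of all genes tested, of which 6.71% with KO higher and 4.79% with KO lower. The means were 118 ± 9.46 CPM in WT and 139 ± 11.9 CPM in KO (SD, n = 3 each). The log2 fold change was 0.22 (SE 0.101, 95% interval -0.01 to 0.45), with an adjusted p of 0.804 in edgeR's quasi-likelihood test and an exact two-sided permutation p of 0.1, the smallest possible here. Per Cd3e it was 0.411, 0.332 and 0.269 in WT and 0.467, 0.627 and 0.389 in KO, where KO3 lay within the WT range. None of the 8 genes had separate ranges per Cd3e, against 5.59% of all genes (5.30% with KO higher and 0.292% with KO lower).

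In CPM, the summed level of markers of CD8a+ conventional dendritic cells (cDC1) separated the groups, as Id2 did. It was 696, 614 and 667 CPM in WT and 942, 952 and 876 CPM in KO, with no overlap. All 10 markers were higher in KO, 6 of 10 had separate CPM ranges (11.5% of all genes) and 7 of 10 had an unadjusted p under 0.05 (6.25% of all genes), while 0 passed the adjusted threshold in edgeR's quasi-likelihood test. The 4 whose ranges overlapped, named after their values were seen, were Itgax and the defining markers Xcr1, Clec9a and Batf3, and Xcr1 in KO2 (16.6 CPM) lay within the WT range of 15.2 to 17.5 CPM. Per Cd3e, 7 of the 10 markers had separate ranges with KO higher (5.30% of all genes), while the ranges of Id2 overlapped. Tlr3 and Zbtb46, both of this list, were among the 3 genes whose pattern over the libraries was most like that of Id2. The part of these cells in the Id2 values was not tested.

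**Figure D2:**
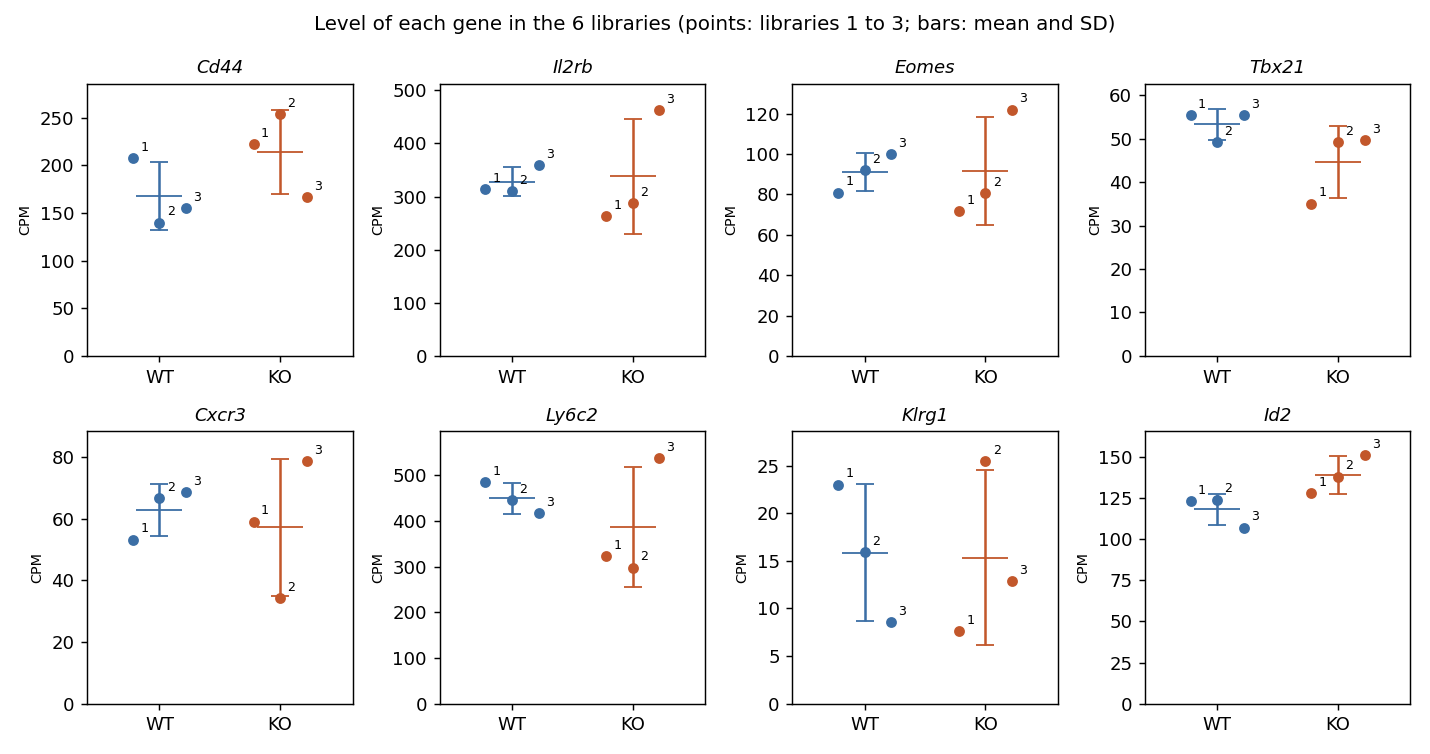
Each panel gives the CPM of one gene in the 3 WT and 3 KO libraries (numbered points), with the group mean and SD as bars. Id2 is the one gene whose KO points, from 128 to 151 CPM, all lie above its WT points, and KO3 is the highest point for Il2rb, Eomes, Cxcr3, Ly6c2 and Id2.

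In CPM, each of the 8 genes had a larger SD among the KO libraries than among the WT libraries. This held for 54.5% of all genes tested, and the difference in spread was not tested. Per Cd3e the SD of Ly6c2 was larger in WT, at 0.298 against 0.108. KO3 was the highest library for 5 of the 8 genes, and KO1 or KO2 the lowest for 6. The share of all genes with these patterns was not computed, and the T cell marker sum was also lowest in KO2 (3700 CPM) and KO1 (4640 CPM). Dividing by Cd3e narrowed the spread over the 6 libraries for Il2rb, Eomes, Cxcr3 and Ly6c2, with the coefficient of variation of Il2rb going from 21.4% to 17.3%. It widened the spread for Cd44, Tbx21, Klrg1 and Id2, with that of Cd44 going from 23.0% to 47.9%.

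**Figure D3:**
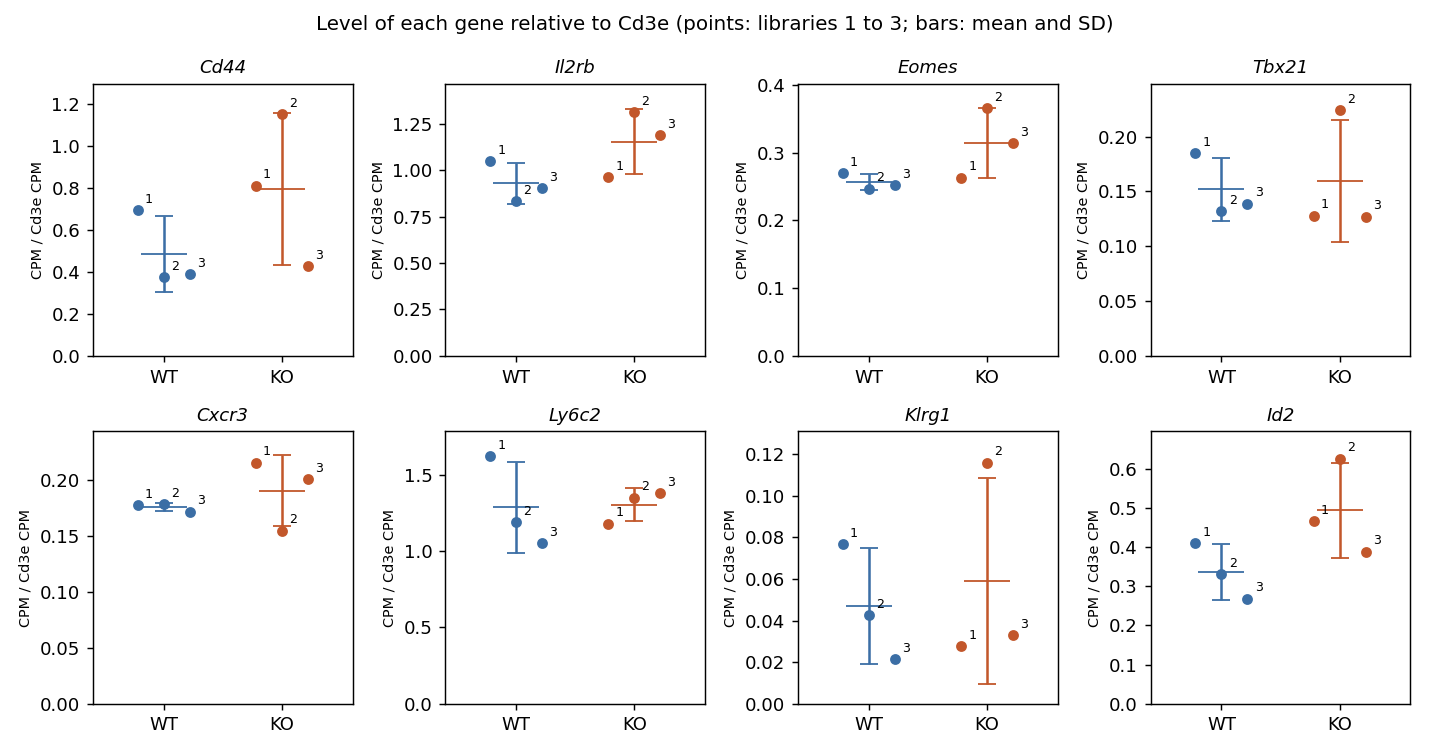
Each panel gives the ratio of one gene's CPM to the Cd3e CPM of the same library (numbered points), with the group mean and SD as bars. The groups overlap in every panel, and Cd44 falls into high ratios in WT1, KO1 and KO2, from 0.693 to 1.15, and low ratios, from 0.374 to 0.428, in the others.

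**Figure D4:**
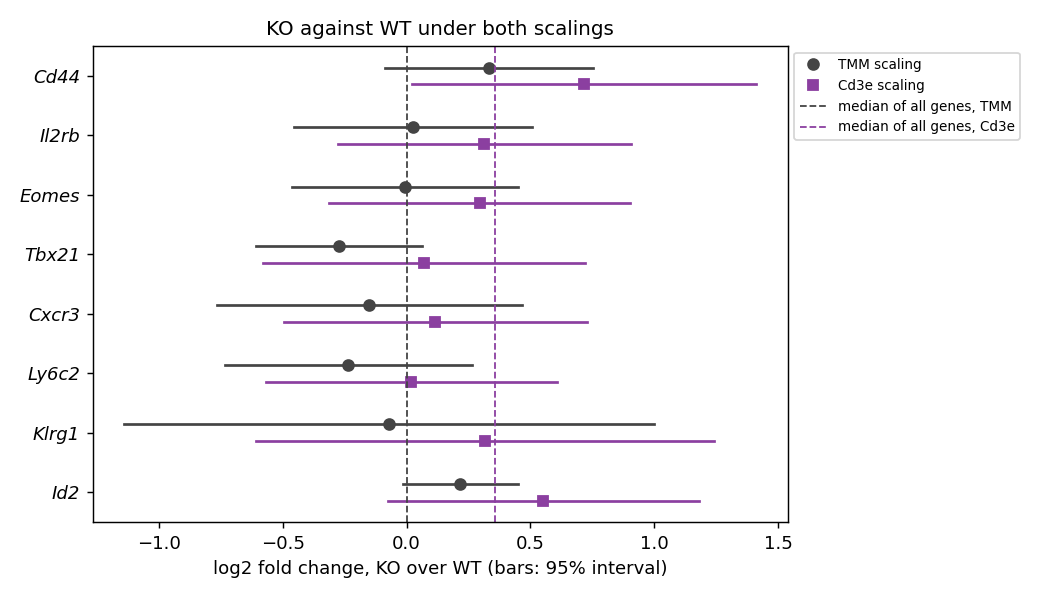
Points are the log2 fold changes of KO over WT from edgeR with TMM scaling (circles) and with Cd3e scaling (squares), lines are 95% intervals, and dashed lines are the medians of all genes, 0.00297 and 0.355. Every TMM interval spans 0, and on the Cd3e scale Cd44 and Id2 lie above the dashed line of that scale.

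With TMM scaling 3 of the 8 genes were higher in KO and 5 lower, with a median log2 fold change of -0.04 against 0.00 for all genes. Per Cd3e all 8 were higher, with a median of 0.30 against 0.355 for all genes, and Cd44 and Id2 were the 2 above that median. Divided by the length of the longest coding transcript, the mean levels in CPM per kb ran from Ly6c2 (509) through Il2rb (79.4), Id2 (65.5), Cxcr3 (34.7), Cd44 (34), Eomes (25.7) and Tbx21 (19.7) to Klrg1 (11). Ranges over the 6 libraries did not overlap between Ly6c2 and Il2rb, nor between Id2 and Cxcr3, and overlapped between all other neighbours in this order. With merged exon length, an alternative chosen after the data were seen, the order was the same, but Ly6c2 stood at 153 CPM per kb (109 to 196, against 61.3 to 108 for Il2rb) and the range of Id2 (43.9 to 61.9) overlapped that of Cxcr3 (19.7 to 45.3).

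The genes followed different patterns over the 6 libraries. For each, the 3 most similar genes were taken from 175 genes of the marker and role lists by Pearson's r of log2(CPM + 1) over the 6 libraries, which share the split in cell content described above, so r is given as a description. Cd44 was most like the NK receptor genes Klri2 (r = 0.983) and Ncr1 (0.975) and the neutrophil granule gene Ltf (0.971), and ran opposite to Cd3e (r = -0.94). Il2rb was most like Bcl2 (0.970), the survival factor downstream of IL-15, and Eomes (0.970), then Il18r1 (0.882), while Eomes was most like Il2rb, Bcl2 (0.946) and Stat5a (0.862). Cxcr3 followed the T cell genes Nsg2 (0.964), Thy1 (0.924) and Cd3e (0.923).

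Ly6c2 was closest to Hopx (0.996), Cd160 (0.967) and Stat4 (0.948), and Tbx21 to Batf (0.948), Itgal (0.891) and Ifng (0.839), the cytokine gene that T-bet activates. Klrg1 was closest to the chemokine gene Ccl4 (0.956), the erythroid factor gene Klf1 (0.945) and the granzyme gene Gzmb (0.935). For Id2 the closest were Tlr3 (0.924), Il15ra (0.911) and Zbtb46 (0.889). NK cell markers summed to 93.4, 43.5 and 40.2 CPM in WT and 84.6, 110 and 52.1 CPM in KO. In CPM, Il2rb and Eomes were highest in KO3, where the NK sum was 52.1 CPM, and per Cd3e both were highest in KO2, where it was 110 CPM. The part of NK cells in these values was not tested.

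The pathway around the 8 genes was described with lists of genes by role, none of which held a called gene. Of 33 other effector and memory genes, 0 were called in either direction with TMM or Cd3e scaling in edgeR's quasi-likelihood test, and DESeq2 and limma voom also called 0. With TMM scaling 9 were higher in KO and 24 lower, with a median log2 fold change of -0.07. Its most abundant genes were Ahnak at 961 ± 73.7 CPM in WT and 926 ± 152 in KO, Itgal at 775 ± 22.2 and 738 ± 28, Itga4 at 705 ± 73.1 and 714 ± 27.6, and Spn at 502 ± 23.6 and 430 ± 43.8 (SD, n = 3 each). The only one with an unadjusted p under 0.05, named after its value was seen, was the chemokine gene Ccl5, at 575, 380 and 338 CPM in WT and 230, 333 and 330 CPM in KO, where every KO library lay below every WT library. Over all genes tested, 6.25% had such a p and 4.79% such separate ranges. Per Cd3e the list's median was 0.27, and no gene had an unadjusted p under 0.05.

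Of the IL-2 and IL-15 receptor chains, ligands and signal transducers, 13 of 14 were tested and 0 were called by edgeR with either scaling, nor by DESeq2 or limma voom. The median log2 fold change was -0.01 with TMM scaling and 0.36 per Cd3e. Il2rg, the common gamma chain that pairs with Il2rb, was at 502, 523 and 542 CPM in WT and at 430, 398 and 498 CPM in KO, with every KO library below every WT library (4.79% of all genes). Its log2 fold change was -0.26 (SE 0.110), with an unadjusted p of 0.0447 and an adjusted p of 0.786 in edgeR's quasi-likelihood test, and it was the only gene of the list with an unadjusted p under 0.05 with TMM scaling. Per Cd3e the ranges of Il2rg overlapped and its log2 fold change was 0.07. The gene with an unadjusted p under 0.05 per Cd3e was Il2ra, named after its value was seen, at a log2 fold change of 0.91. Stat5a and Bcl2 had separate ranges per Cd3e with KO higher (5.30% of all genes), at log2 fold changes of 0.38 and 0.36, near the 0.355 of all genes. The abundant Jak1 was at 990 ± 78.3 CPM in WT and 925 ± 87.9 in KO, Mcl1 at 711 ± 72.3 and 717 ± 110, and Pim1 at 303 ± 38.9 and 352 ± 105 (SD, n = 3 each).

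Of 14 transcription factors that act with or against the T-box factors and Id2, 13 were tested and 0 were called by edgeR with either scaling, nor by DESeq2 or limma voom. The median log2 fold change was 0.10 with TMM scaling, where no gene had an unadjusted p under 0.05, and 0.48 per Cd3e, where Zeb2 alone did, named after its value was seen. The E protein genes Tcf3 and Tcf12, whose products Id2 binds, were at 199 ± 17.5 and 132 ± 12.7 CPM in WT and 213 ± 24.7 and 143 ± 18.6 CPM in KO (SD, n = 3 each). Ikzf3 was at 322 ± 14.6 and 355 ± 28.1 CPM, and Runx3, which acts with T-bet in CD8 T cells, at 171 ± 16.0 and 169 ± 19.5 CPM, in WT and KO.

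Genes of naive homing and quiescence numbered 14, all tested, and 0 were called by edgeR, DESeq2 or limma voom, with no unadjusted p under 0.05 in edgeR under either scaling. With TMM scaling 2 were higher and 12 lower in KO, with a median log2 fold change of -0.15, and per Cd3e the median was 0.20. S1pr1, named after its values were seen, was at 404, 462 and 419 CPM in WT and 392, 390 and 391 CPM in KO. Every KO library lay below every WT library (4.79% of all genes). Per Cd3e, Nsg2 had separate ranges with KO higher (5.30% of all genes). Klf2 was at 1410 ± 91.0 CPM in WT and 1290 ± 74.7 in KO, Tcf7 at 925 ± 178 and 780 ± 185, and Ccr7 at 533 ± 46.8 and 473 ± 36.0 (SD, n = 3 each). T cell markers were also lower in KO, 16 of 16, with a median of -0.32, and the part of T cell content in the naive genes was not tested.

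Ligands of the surface molecules are made largely by other cells, and 4 of 5 passed the filter. None was called by edgeR with either scaling, DESeq2 or limma voom, while 4 of 4 were higher in KO with a median log2 fold change of 0.65. Cxcl9, the Cxcr3 ligand of macrophages and dendritic cells, was at 13.3, 16.8 and 11.9 CPM in WT and at 22.5, 14.3 and 29.8 CPM in KO. KO2 lay among the WT libraries and the other KO libraries above them, with a log2 fold change of 0.65 (SE 0.272) and an adjusted p of 0.786 in edgeR's quasi-likelihood test. Cdh1, encoding the Klrg1 ligand E-cadherin, was at 5.35, 3.72 and 7.24 CPM in WT and at 8.78, 8.02 and 9.33 CPM in KO, without overlap. Cxcl9 and Cdh1 were the 2 ligand genes with an unadjusted p under 0.05, on either scale, against 6.25% of all genes with TMM scaling and 7.10% per Cd3e. The summed markers of cDC1 (614 to 696 CPM in WT, 876 to 952 CPM in KO) and of red pulp macrophages (535 to 787 and 741 to 2040 CPM, overlapping) had higher means in KO beside them, and the part of these cells in the ligand values was not tested. Cxcl10 was at 4.77 ± 0.877 CPM in WT and 5.50 ± 2.07 in KO, and Vcan, a CD44-binding proteoglycan, at 2.58 ± 1.62 and 4.15 ± 1.32 (SD, n = 3 each).

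**Figure D5:**
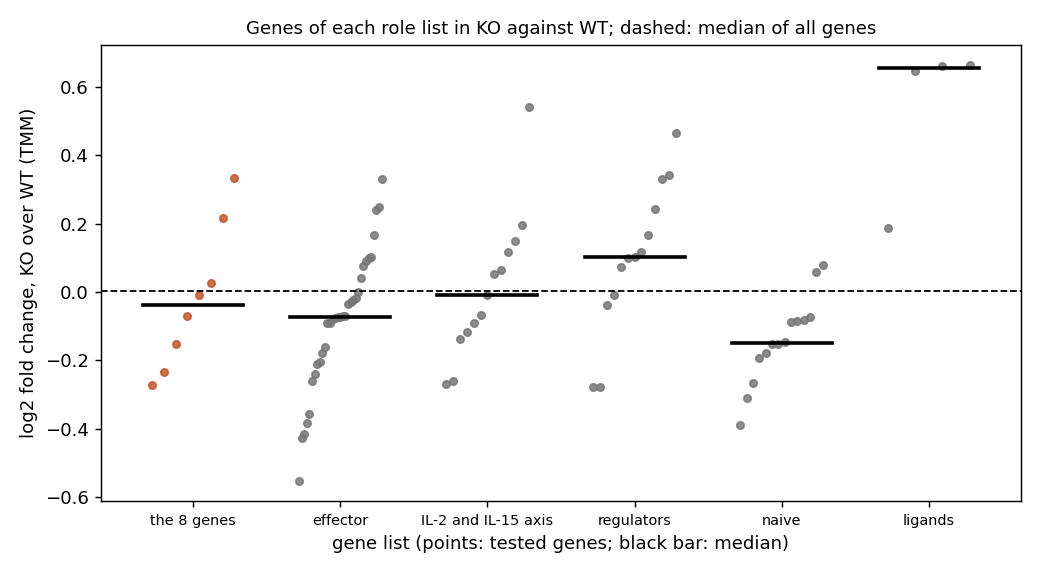
Each point is the log2 fold change of one tested gene in KO over WT with TMM scaling, grouped by role list, black bars are list medians and the dashed line is the median of all genes. The medians of the 8 genes, of the effector list and of the IL-2 and IL-15 list lie between -0.07 and -0.01, the naive list at -0.15 and the 4 ligands at 0.65, and no point is of a called gene.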

How the data were processed

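RNA-seq libraries of CD8a+ spleen leukocytes from 3 WT and 3 KO samples were used. The deposited files hold expected counts, 1 value for each Ensembl identifier and without scaling, a unit read from the values, since between 3527 and 4925 values per library were not whole. The submitters' processing notes name GRCm38 and mm10, and the aligner, the counter and the use of strand are not given in the sources used here. Groups came from the sample records. Of 44678 identifiers, 44121 (98.75%) matched GENCODE M21 on GRCm38.

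Counts were rounded and tested in R 4.3.3 with edgeR 4.0.16 (quasi-likelihood test, filterByExpr with a minimum count of 10 and total of 15, Benjamini-Hochberg over all tested genes, threshold 0.05), first with TMM scaling and then with each library's Cd3e count as its size. In the second fit, Cd3e was left out of the adjustment only. Its single count sets the scale of a whole library, so errors are shared by all genes. The exact test was a two-sided permutation of log2 values. DESeq2 1.42.0, limma voom 3.58.1, upper-quartile scaling, other filters, other T cell references, the replicate number as a block, summed Ly6c1 and Ly6c2, and each library left out were alternatives. A fit with Cd3e removed beforehand was added once results had been seen. The procedure was tested on simulated counts.

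The 8 genes and all lists were chosen with earlier results of these data known. The text gives all 8 genes. Of each role or marker list it could name any gene with an adjusted p under 0.05 and otherwise up to 4 of the highest mean CPM. It also names the 3 list genes (mean CPM of at least 5) most correlated with each of the 8, Cd3e and Cd8a as references, and Ly6c1 as a paralog. Of 191 list genes, 1 was not found, and 1 that the rule names is not reported here. Library totals between 8143971 and 8876570 counts leave the rarest of the 8 genes, Klrg1, with 65 counts in its lowest library.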

Additional observations from a re-analysis of the deposited data

How the results depend on the processing

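None of the 8 genes was called under any TMM alternative, and 1, Cd44, was called per Cd3e when KO3 was left out (0 to 1 over the libraries left out), in a fit that called 854 of 13301 genes (6.42%). Of 97 comparisons of a single gene under a TMM alternative, 84 kept the direction, and of 113 per Cd3e, 105 did. The causes of the other changes were not tested. With TMM scaling, Il2rb changed sign under limma voom (-0.0206) and, over the libraries left out, ranged from -0.30 to 0.17. Eomes ranged from -0.31 to 0.13, Cxcr3 from -0.48 to 0.12 and Klrg1 from -0.64 to 0.29, while Cd44 (0.20 to 0.51), Tbx21 (-0.39 to -0.14), Ly6c2 (-0.58 to -0.08) and Id2 (0.12 to 0.26) kept their sign. Per Cd3e, Tbx21 ranged from -0.25 to 0.24, Ly6c2 from -0.11 to 0.22 and Klrg1 from -0.62 to 0.86, while Cd44 (0.35 to 1.06), Il2rb (0.21 to 0.43), Eomes (0.17 to 0.41), Cxcr3 (0.02 to 0.24) and Id2 (0.34 to 0.72) kept theirs.

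Counts over all genes moved more. With TMM scaling 4 genes were called, 58 with DESeq2, 12 without a filter and from 2 (without WT1 or WT3) to 94 (without KO3) with a library left out. Per Cd3e 18 were called, against 9 with limma voom, 7 with the summed CD3 genes as reference, 157 with Cd8b1, 183 without a filter and 29 with Cd3e removed before the fit, an alternative chosen after the data were seen, under which 0 of the 8 genes were called. With a library left out the count per Cd3e ran from 26 to 854, with 854 without KO3, 439 without WT1, 57 without KO1, 42 without KO2 and 28 without WT3. The role lists held from 0 to 1 called genes with TMM scaling (Nkg7 without KO3), and from 0 to 3 per Cd3e (Gzma, S100a4 and Zeb2 without WT1, Il2ra without KO3). These genes were named after their values were seen.

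Deviations of same-numbered libraries correlated at -0.00336, -0.253 and 0.158, and not every library correlated best with its own number. The highest values were 0.358 for WT1 with KO2 and 0.282 for WT2 with KO3, libraries on the same side of the split in cell content. These correlations therefore cannot decide whether the replicate numbers pair the samples. With the replicate number as a block, 9 genes were called with TMM scaling and 105 per Cd3e, none of the 8 among them, and Il2rb stood at -0.0192.

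With 3 libraries a group, the 95% intervals of the 8 genes with TMM scaling were from 0.46 (Id2) to 2.14 (Klrg1) log2 units wide from end to end.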

Other observations

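Ratios between the genes, chosen after their values were seen, are given as values. The ratio of Eomes to Tbx21 CPM was 1.46, 1.87 and 1.81 in WT1, WT2 and WT3 and 2.05, 1.64 and 2.46 in KO1, KO2 and KO3, so KO1 and KO3 lay above every WT library and KO2 among them (exact two-sided permutation p = 0.4). The ratio of Il2rb to its partner chain Il2rg was 0.625, 0.594 and 0.663 in WT and 0.612, 0.724 and 0.930 in KO (exact two-sided permutation p = 0.3). Among the 7 ratios computed, the one with separate groups was Cd8b1 to Cd8a, at 0.786, 0.726 and 0.719 in WT and 0.641, 0.639 and 0.668 in KO (exact two-sided permutation p = 0.1, the smallest that 3 against 3 libraries allow). The summed cDC1 markers, of dendritic cells that carry Cd8a, were at 614 to 696 CPM in WT and 876 to 952 CPM in KO, also without overlap, and their part in this ratio was not tested.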
